A study of Mus musculus with 17 samples.

Results

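The data concern 10 genes that encode receptor chains for cytokines of blood formation: Csf1r, Csf2ra, Csf2rb, Csf2rb2, Csf3r, Il3ra, Il6ra, Il6st, Il1r1 and Tnfrsf1a. They were picked by symbol from the 35321 genes of the deposited count table, and all 10 passed the filter on low counts that left 14920 genes for testing. RNA was sequenced from bone marrow cells sorted as hematopoietic stem and progenitor cells (HSPC), the pool that renews blood, in 17 libraries. All mice were wild-type C57BL/6J, an inbred strain, and neither age nor sex is given in the sources used here. A first group of 5 libraries came from mice given phosphate-buffered saline (PBS, titled day 0). Groups of 3 libraries each were taken 24 h and 72 h after intraperitoneal lipopolysaccharide (LPS, a component of bacterial outer membranes that triggers inflammation). The other groups, also of 3 libraries each, came 24 h and 72 h after LPS combined with an antibody against the receptor of interleukin-10 (IL-10R), an anti-inflammatory cytokine. No group received the antibody without LPS, and no control antibody is described. The amounts were 5 and 100, in micrograms by one of the submitters' texts and in milligrams by another, and neither unit is assumed here. The surface gate of the sort is named only as an HSPC stain, and whether replicates are separate mice is not stated, so p-values measure the spread between these libraries, which may be technical.

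These receptors carry the signals that raise myeloid output during infection, known as emergency myelopoiesis. Csf3r binds granulocyte colony-stimulating factor (G-CSF) and Csf1r, a receptor tyrosine kinase, binds macrophage colony-stimulating factor and interleukin-34. The receptor for granulocyte-macrophage colony-stimulating factor (GM-CSF) joins a binding chain, Csf2ra, to the signalling chain Csf2rb, the common beta chain, which also serves interleukin-3 and interleukin-5. Interleukin-3 is bound by Il3ra, and mice have an additional beta chain, Csf2rb2, that serves interleukin-3 alone. Il6ra binds interleukin-6 and signals through Il6st (gp130), a chain shared by the interleukin-6 family, while Il1r1 and Tnfrsf1a are signalling receptors for interleukin-1 and for tumour necrosis factor (TNF).

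Csf2rb and Csf2rb2 are shown first because their near-identity bears on every count of either gene. On build GRCm38 (GENCODE M21) Csf2rb spans chr15:78325752-78353847 on the plus strand and Csf2rb2 spans chr15:78282507-78305721 on the minus strand, 20030 bases apart. Over 2628 aligned coding bases 95.2% were identical. Of all 50-base windows, 16.9% of those in Csf2rb occurred unchanged in Csf2rb2 and 18.4% of those in Csf2rb2 in Csf2rb, and with 100-base windows the shares were 6.40% and 6.82%. How reads that match both genes were counted is not given in the sources used here, so the split between the pair is uncertain. The first 120 coding bases of each hold 4 differences, which are in capitals.
Csf2rb: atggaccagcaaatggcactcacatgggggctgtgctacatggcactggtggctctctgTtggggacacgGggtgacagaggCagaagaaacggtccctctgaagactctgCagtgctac
Csf2rb2: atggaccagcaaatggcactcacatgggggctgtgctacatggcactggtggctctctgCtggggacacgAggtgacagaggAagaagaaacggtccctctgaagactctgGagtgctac

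Promoter windows (250 bases before and 50 after a RefSeq transcript start, GRCm38.p6) were found for 8 of the 10 genes used here. They were searched on both strands for AGGAAG, a core of ETS-family sites such as those of PU.1, for TTGCNNAA, a palindrome of C/EBP factors, and for TTCNNNGAA, a palindrome of STAT factors. Over all 32851 windows of the table these occurred in 35.4%, 10.8% and 8.30%. Shown here, with the matches in capitals, are Csf2rb2, Il3ra and Csf3r. Csf2rb2 had the widest range over the libraries, and Il3ra the smallest adjusted p of the receptors in the antibody comparison at 72 h. Csf3r had the most negative correlation with Csf2rb2 among the receptors, given below with its limit. Csf2rb2 at chr15:78305672-78305971 (minus strand) has 2 ETS matches and 1 STAT match, Il3ra at chr14:14346245-14346544 (plus strand) has 1 ETS match that directly precedes 1 C/EBP match, and Csf3r at chr4:126024409-126024708 (plus strand) has 4 ETS matches.
Csf2rb2 promoter: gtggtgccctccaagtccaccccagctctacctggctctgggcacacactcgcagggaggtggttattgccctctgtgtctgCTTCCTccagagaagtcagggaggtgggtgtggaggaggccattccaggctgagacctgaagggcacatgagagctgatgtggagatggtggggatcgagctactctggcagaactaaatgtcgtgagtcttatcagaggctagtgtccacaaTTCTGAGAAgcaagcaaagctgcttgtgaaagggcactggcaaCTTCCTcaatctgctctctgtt
Il3ra promoter: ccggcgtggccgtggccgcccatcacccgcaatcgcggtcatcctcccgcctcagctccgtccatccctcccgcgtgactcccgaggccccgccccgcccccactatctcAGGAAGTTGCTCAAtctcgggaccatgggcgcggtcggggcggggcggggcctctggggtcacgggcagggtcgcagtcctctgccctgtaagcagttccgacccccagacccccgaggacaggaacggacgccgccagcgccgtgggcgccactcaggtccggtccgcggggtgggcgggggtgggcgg
Csf3r promoter: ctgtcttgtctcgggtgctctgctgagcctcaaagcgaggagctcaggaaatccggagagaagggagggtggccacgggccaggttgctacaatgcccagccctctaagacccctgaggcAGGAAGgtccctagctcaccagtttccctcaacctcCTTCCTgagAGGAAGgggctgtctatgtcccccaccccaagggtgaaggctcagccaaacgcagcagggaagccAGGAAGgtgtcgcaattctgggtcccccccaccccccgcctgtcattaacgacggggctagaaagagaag
Csf2ra had 2 ETS matches, Il6ra 1 ETS match, and Tnfrsf1a 1 ETS match and 1 STAT match that share 1 base. Of the 2 windows of Il1r1 the first had 1 C/EBP match and the other had none, and Il6st had none. These matches describe the letters and were not tested as sites.

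The remaining genes lie at chr4:126024550-126044440 (Csf3r), chr19:61223957-61228429 (Csf2ra), chr14:14346275-14356011 (Il3ra), chr3:89864059-89913196 (Il6ra), chr13:112464070-112510086 (Il6st), chr1:40225080-40317257 (Il1r1) and chr6:125349362-125362484 (Tnfrsf1a), on GRCm38. Hmgxb3, at 37.0 to 74.8 CPM (counts scaled by library size, as defined for all values below), lies antisense to Csf1r, and without a stated strand setting reads from their overlap cannot be told apart. Antisense genes at Il3ra and Il6ra, Gm48860 and Gm42809, reached no more than 1.17 and 2.82 CPM.

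Library totals ran from 10516722 to 16006001 counts, with scaling factors by the trimmed mean of M-values (TMM) of 0.798 to 1.12, the lowest in LPS 24 h replicate 1. All values below are TMM-scaled CPM. Markers of the labelled cell type were present in every group, with 0 of 10 at 0 throughout a group and a summed level of 1628 to 2400.1 CPM in PBS, 1019 to 1175 at LPS 24 h, 1132 to 1507 with antibody at 24 h, 1665 to 2245 at LPS 72 h and 1105 to 1830.0 with antibody at 72 h. Both antibody libraries numbered 1 stood apart: their summed erythroid markers were 1738 CPM at 24 h and 1036 CPM at 72 h, the highest of the 17. Calls that rest on these libraries are given with and without them, while correlations are given over all 17 libraries only. The labels name no batch, although library names follow a different style for PBS and for the 24 h libraries numbered 1. Whether that style marks a separate preparation was not tested, and for PBS it cannot be told apart from the group.

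In PBS libraries Tnfrsf1a and Csf3r had the highest levels per length of exon and Csf2rb2 the lowest. The levels in CPM per kb of exon were 43.1 ± 5.76 for Tnfrsf1a and 42.7 ± 6.04 for Csf3r (mean ± SD, n = 5), overlapping each other. Csf1r followed at 26.6 ± 8.65, and its libraries, at 17.5 to 37.8, overlapped those of Tnfrsf1a, Csf3r and Csf2ra. Next came Csf2ra at 17.6 ± 4.09 and Csf2rb at 17.2 ± 2.28, whose libraries overlapped. Il6st, Il1r1, Il6ra, Il3ra and Csf2rb2 lay between 10.5 and 6.49 CPM per kb, each overlapping the next in order. Across all 17 libraries Tnfrsf1a moved least, from 89.3 to 139.3 CPM (1.56-fold), and Csf2rb2 most, from 22.6 to 256 CPM (11.3-fold).

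**Figure D1:**
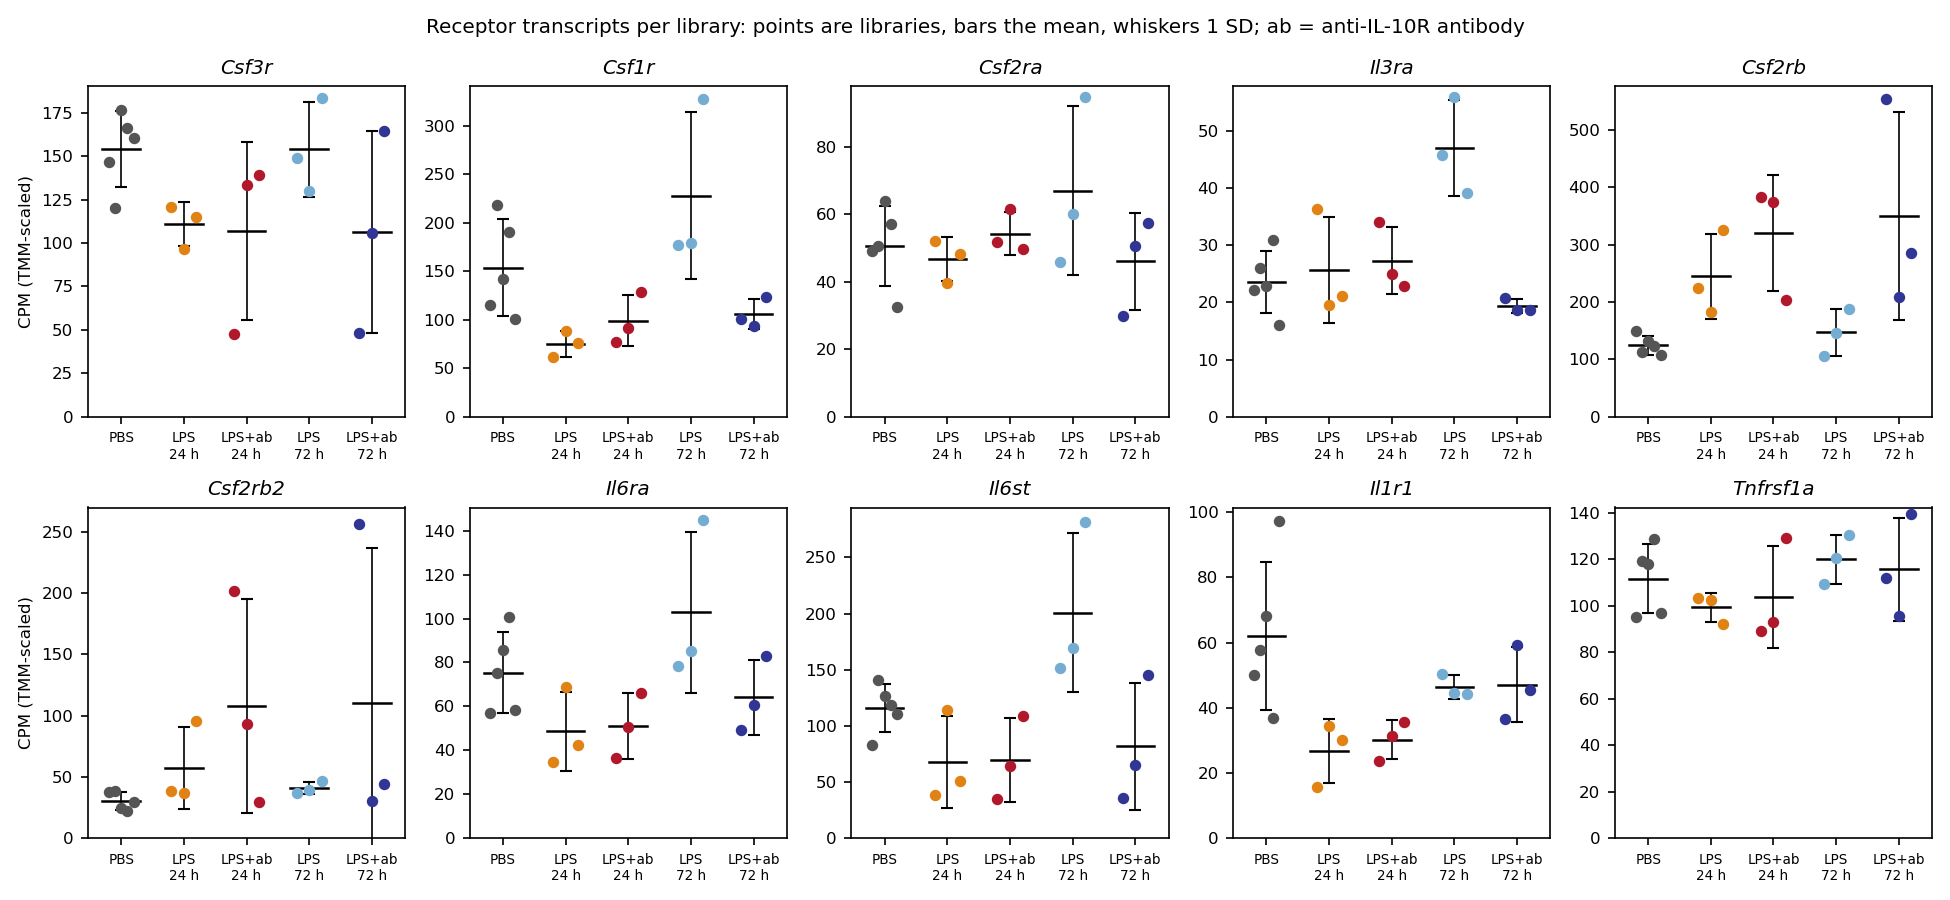
Each panel plots 1 receptor gene in TMM-scaled CPM (vertical axis from 0) for the 5 groups, with points for libraries in order of their number, a bar for the mean and whiskers of 1 SD (cut at 0 where longer). Csf2rb is above all PBS libraries in LPS 24 h and in both antibody groups, Csf1r and Il1r1 are below all PBS libraries at LPS 24 h, and Il3ra is highest at LPS 72 h; the antibody libraries numbered 1 (first point of their group) have the highest Csf2rb2.

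At 24 h after LPS, 3 of the 10 receptors changed against PBS by edgeR's quasi-likelihood test (adjusted p below 0.05 over all 14920 genes): Csf2rb rose, and Csf1r and Il1r1 fell. In these bulk samples fewer cells of a type and less RNA per cell cannot be told apart. Over all genes 37.6% were called in this comparison, so the share among the receptors is near the background; 19.1% were higher and 18.5% lower. The median log2 change was -0.32 over the receptors and -0.03 over all genes tested. Libraries did not overlap between the groups for 3 receptors, the same 3 that were called, against 42.8% of all genes.

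Csf2rb, the common beta chain, stood at 149, 113, 132, 123 and 107 CPM in PBS libraries 1 to 5 and at 225, 183 and 326 CPM in the LPS 24 h libraries. All 3 LPS libraries were above all 5 PBS libraries, and replicate 3 was the highest. The log2 change was 0.97 ± 0.29 (SE), 95% interval 0.35 to 1.59, adjusted p = 0.0164, a 1.96-fold rise. Same-numbered PBS and LPS 24 h libraries deviated weakly together, as described in the processing notes. With the number as a block the change was 0.90 with an adjusted p of 0.0784. It also missed the threshold without LPS 24 h replicate 3 (0.71, adjusted p = 0.101). Its partner Csf2ra, the GM-CSF binding chain, did not pass (-0.12 ± 0.25 (SE), 95% interval -0.65 to 0.42, adjusted p = 0.742), with libraries at 49.1, 50.6, 64.0, 56.997 and 32.4 CPM in PBS and 52.2, 39.7 and 48.4 CPM at LPS 24 h. The interleukin-3 binding chain Il3ra read 22.1, 26.0, 22.9, 30.9 and 16.001 CPM in PBS and 36.3, 19.6 and 21.1 CPM at LPS 24 h, overlapping (0.12 ± 0.23 (SE), 95% interval -0.36 to 0.60, adjusted p = 0.700). Csf2rb2 read 37.8, 38.6, 24.7, 22.6 and 30.0 CPM in PBS and 38.6, 37.3 and 95.7 CPM at LPS 24 h. Only replicate 3 of LPS 24 h was above the PBS range, and the change did not pass (0.90 ± 0.61 (SE), 95% interval -0.39 to 2.19, adjusted p = 0.258). Summing the counts of the beta chain pair gave 0.96 with an adjusted p of 0.0402. In a fit of these 2 groups alone Csf2rb2 did pass (0.90, adjusted p = 0.0405).

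Csf1r, the macrophage colony-stimulating factor receptor, stood at 115, 218, 143, 191 and 101 CPM in PBS and 61.6, 88.5 and 76.0 CPM at LPS 24 h. Every LPS library lay below every PBS library. The log2 change was -1.03 ± 0.28 (SE), 95% interval -1.61 to -0.44, adjusted p = 0.00957, or 2.04-fold lower, and it missed the threshold without LPS 24 h replicate 1 (-0.89, adjusted p = 0.0632). Markers of monocytes and macrophages were also lower here: 12 of 17 were called lower and 0 higher. Their summed level was 588 to 3127 CPM in PBS and 350.1 to 738 CPM at LPS 24 h, overlapping, with 0 of 17 at 0 throughout either group. LPS replicate 1 had the lowest Csf1r and the highest sum of its group. Of the 10 stem and progenitor markers 6 were also called lower and 0 higher. In other comparisons the median log2 change of the monocyte and macrophage list did not always share the sign of Csf1r. The signs were opposite at LPS 72 h against PBS (-3.08, and 0.57 for Csf1r) and at LPS 72 h against 24 h (-0.18 and 1.60). They were also opposite with antibody against LPS alone at 72 h (1.86 and -1.11) and for the antibody effect between times (1.21 and -1.50). In the remaining comparisons they were alike. The part of these markers in the Csf1r result was not tested.

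Il1r1, the signalling receptor of interleukin-1, read 50.001, 57.6, 68.1, 37.0 and 97.3 CPM in PBS and 15.7, 34.5 and 30.2 CPM at LPS 24 h. The LPS libraries were all below the PBS libraries, though LPS replicate 2 came close to PBS replicate 4. The log2 change was -1.21 ± 0.30 (SE), 95% interval -1.84 to -0.58, adjusted p = 0.00577, 2.31-fold lower, and it passed in all 8 fits that left out 1 library. Several marker sums were lower along with Il1r1: those of B-lymphoid cells were 392 to 1345 CPM in PBS and 73.4 to 97.6 CPM at LPS 24 h (3 of 9 tested called lower: Cd79a, Ebf1 and Jchain), and those of stromal and endothelial cells 143 to 181 and 71.1 to 102 CPM (1 of 5 tested called lower, Pecam1). The calls of these markers held in 0 (Cd79a), 6 (Ebf1) and 8 (Jchain and Pecam1) of 8 fits without 1 library. Over 17 libraries Il1r1 had a Pearson r of 0.75 with the stromal and endothelial list, of whose 8 genes 5 were tested. Lepr and Pdgfra of that list were at 0 in every LPS 24 h library. The correlation was 0.72 with the stem and progenitor, 0.68 with the B-lymphoid and -0.55 with the basophil and mast cell list. The part of these lists in the Il1r1 change was not tested. Tnfrsf1a, a TNF receptor, overlapped between the groups (-0.17 ± 0.15 (SE), 95% interval -0.49 to 0.15, adjusted p = 0.397), with 95.2, 119, 118, 129 and 96.6 CPM in PBS and 103, 103 and 92.0 CPM at LPS 24 h.

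The G-CSF receptor Csf3r stood at 147, 120.4, 177, 166 and 161 CPM in PBS and 121, 96.6 and 115 CPM at LPS 24 h. PBS replicate 2 lay within the LPS range and the change did not pass (-0.48 ± 0.34 (SE), 95% interval -1.20 to 0.24, adjusted p = 0.284). A fit of these 2 groups alone called it (-0.48, adjusted p = 0.0243). Of the interleukin-6 pair, Il6ra read 57.1, 75.01, 85.6, 101 and 58.3 CPM in PBS and 34.8, 68.9 and 42.5 CPM at LPS 24 h, and Il6st read 83.5, 141, 127, 119 and 110.3 and 38.2, 114 and 50.6 CPM. LPS replicate 2 sat within the PBS range for both genes while replicates 1 and 3 sat below it. Neither passed (Il6ra -0.63 ± 0.29 (SE), 95% interval -1.24 to -0.02, adjusted p = 0.0965; Il6st -0.78 ± 0.45 (SE), 95% interval -1.73 to 0.18, adjusted p = 0.186). Without LPS 24 h replicate 2 both did, at -0.96 (adjusted p = 0.0280) and -1.38 (adjusted p = 0.0416).

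**Figure D2:**
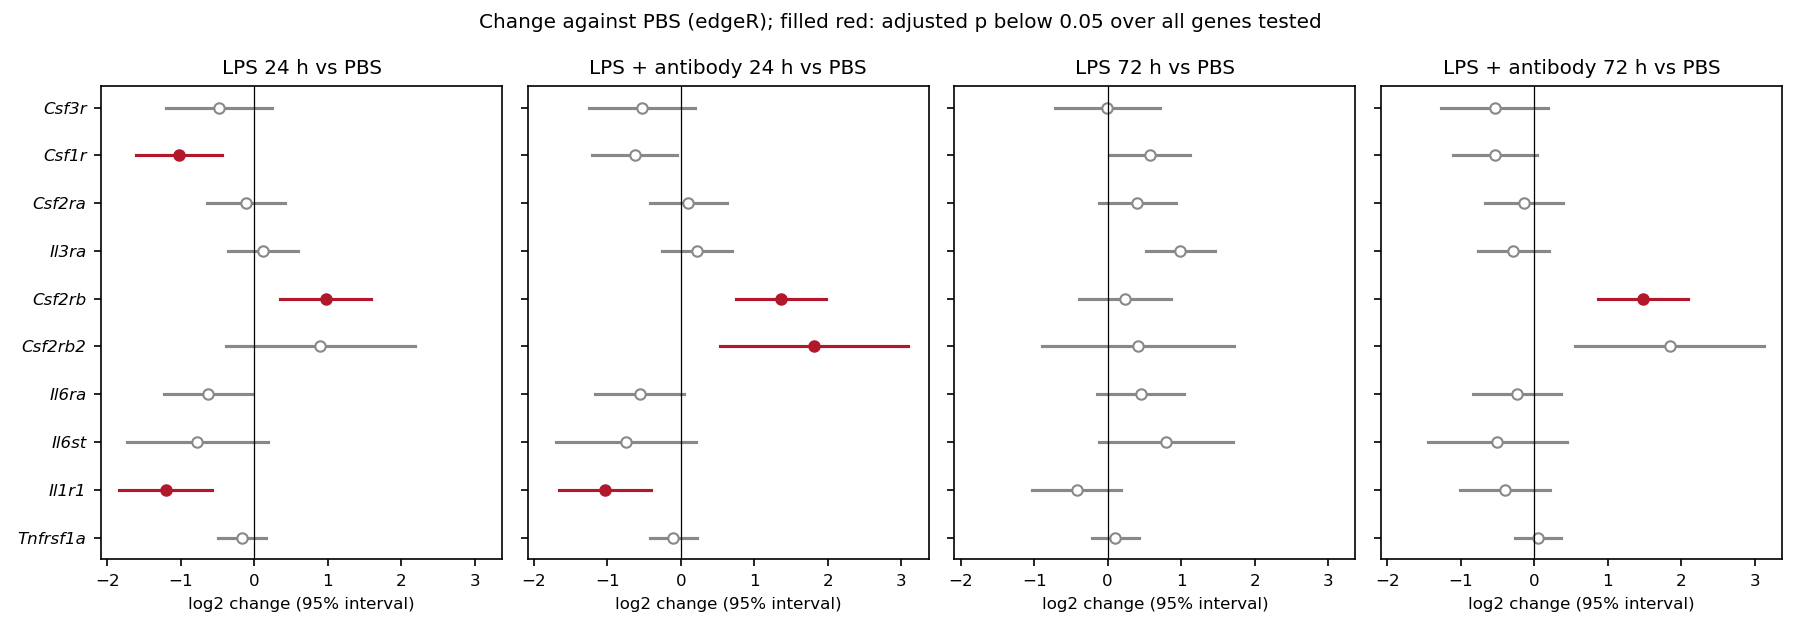
Log2 change against PBS (horizontal axis) with its 95% interval for each receptor in the 4 LPS groups, from edgeR; filled red points have an adjusted p below 0.05 over all genes tested, open grey points do not. Csf2rb is filled in 3 of the 4 panels (0.97, 1.36 and 1.48), and no receptor is filled at LPS 72 h. The 4 panels share the same PBS libraries.

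At 72 h after LPS alone, 0 of the 10 receptors were called against PBS by edgeR, and 2 had an unadjusted p under 0.05 (Csf1r and Il3ra), as had 1702 of all genes (11.4%). Calls were rare in this comparison, at 0.0201% of all genes (3 of 14920, all higher). The median log2 change was 0.41 over the receptors and -0.03 over all genes. Libraries of Il3ra and Il6st did not overlap with PBS, both higher, against 12% of all genes.

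Il3ra, the interleukin-3 binding chain, showed the clearer separation. The LPS 72 h libraries stood at 45.7, 55.9 and 39.2 CPM, all above the PBS maximum of 30.9. The log2 change was 0.99 ± 0.22 (SE), 95% interval 0.52 to 1.46, adjusted p = 0.151, with an unadjusted p of 0.000379. DESeq2 called 1 receptor, Il3ra (1.00, adjusted p = 0.00565), and 178 of 14901 genes. Limma voom with sample quality weights also called Il3ra alone among the receptors (1.15, adjusted p = 0.00201). It called 2170 of 14920 genes, and was added after seeing the data, for this comparison only. Il6st stood at 151, 169 and 282 CPM at LPS 72 h, above all PBS libraries, with a change of 0.79 ± 0.43 (SE), 95% interval -0.12 to 1.70, adjusted p = 0.500. Csf2rb at LPS 72 h read 106, 146 and 188 CPM, overlapping the PBS libraries (0.24 ± 0.29 (SE), 95% interval -0.39 to 0.86, adjusted p = 0.780). Csf1r read 177, 179 and 328 CPM, of which replicate 3 alone was above the PBS range (0.57 ± 0.26 (SE), 95% interval 0.02 to 1.13, adjusted p = 0.425). For Il1r1 the libraries were at 50.5, 44.5 and 44.2 CPM, within the PBS range (-0.42 ± 0.29 (SE), 95% interval -1.03 to 0.19, adjusted p = 0.583).

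Setting the LPS groups against each other, 4 receptors were higher at 72 h than at 24 h and 0 lower: Csf1r, Il3ra, Il6ra and Il6st. Over all genes 31.1% were called in this comparison, with 14.7% higher and 16.4% lower. The receptors' median log2 change was 0.65 against 0.02 over all genes, and libraries did not overlap for 7 receptors against 45.4% of all genes. This comparison shares the LPS 24 h libraries with that against PBS, so the 2 are not independent.

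Csf1r rose by 1.60 ± 0.30 (SE), 95% interval 0.95 to 2.24, adjusted p = 0.00142 on the log2 scale, 3.02-fold, with 24 h libraries at no more than 88.5 CPM and 72 h libraries at no less than 177 CPM. It passed in all 6 fits without 1 library. Il3ra rose by 0.87 ± 0.25 (SE), 95% interval 0.33 to 1.41, adjusted p = 0.0167, its 72 h minimum of 39.2 CPM lying just above LPS 24 h replicate 1 at 36.3 CPM. Il6ra, at 78.6, 85.0 and 145 CPM at 72 h, rose by 1.08 ± 0.32 (SE), 95% interval 0.40 to 1.75, adjusted p = 0.0181, and Il6st rose by 1.57 ± 0.50 (SE), 95% interval 0.50 to 2.63, adjusted p = 0.0269. Both interleukin-6 chains had their highest 72 h value in replicate 3. The calls of Il6ra and Il6st were lost without LPS 24 h replicate 1 (adjusted p = 0.0763 and 0.102), without LPS 24 h replicate 3 (0.0706 and 0.0980) or without LPS 72 h replicate 3 (0.110 and 0.107). The call of Il3ra was lost without LPS 24 h replicate 2 (0.0663), LPS 24 h replicate 3 (0.0785) or LPS 72 h replicate 2 (0.0711). Csf3r, Il1r1 and Tnfrsf1a were also higher in every 72 h library than in every 24 h library, but did not pass (adjusted p = 0.352, 0.0724 and 0.227). For Csf2rb the change was -0.73 ± 0.33 (SE), 95% interval -1.44 to -0.03, adjusted p = 0.106. Markers of basophils and mast cells moved in the same comparison, with 4 of 7 called lower (Cpa3, Mcpt8, Ms4a2 and Fcer1a) and a summed level of 259 to 659 CPM at 24 h and 138 to 179.7 CPM at 72 h, while 6 of the 10 stem and progenitor markers were called higher. Of the erythroid markers 3 of 11 were called lower (Hbb-bs, Epor and Alas2), with a sum of 329 to 752 CPM at 24 h and 5.85 to 107 CPM at 72 h. B-lymphoid markers summed to 73.4 to 97.6 CPM at 24 h and 149 to 405 CPM at 72 h, with 1 of 9 tested called higher (Jchain). Monocyte and macrophage markers summed to 350.1 to 738 CPM and 586 to 1111 CPM, overlapping, with 2 of 17 called higher (Cd163 and Cx3cr1). Of the neutrophil and megakaryocyte markers 0 were called. Of the T and NK cell markers 3 of 11 were called higher (Klrb1c, Cd8a and Cd4), and of the stromal and endothelial markers 1 of 5 tested (Pecam1). The latter list summed to 71.1 to 102 CPM at 24 h and 188 to 209 CPM at 72 h without overlap, although the median log2 change of the 5 was -0.09. The part of these lists in the receptor changes was not tested. Of the marker calls named here, those of Ms4a2 and Pecam1 held in all 6 fits without 1 library. The others held in 5 (Cx3cr1), 4 (Klrb1c, Cd8a and Cd163), 3 (Cd4), 2 (Mcpt8, Fcer1a, Hbb-bs and Jchain) or 1 (Cpa3, Epor and Alas2) of the 6.

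With the IL-10R antibody, 3 receptors changed against PBS at 24 h: Csf2rb and Csf2rb2 were higher and Il1r1 lower, with 24.2% of all genes called, 11.7% higher and 12.5% lower. The median log2 change was -0.32 over the receptors and -0.00 over all genes. Libraries of 2 receptors, Csf2rb and Il1r1, did not overlap with PBS, against 31% of all genes.

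Csf2rb stood at 384, 373 and 203 CPM with LPS and antibody at 24 h, all above PBS, a log2 change of 1.36 ± 0.29 (SE), 95% interval 0.74 to 1.97, adjusted p = 0.00679. It passed in all 8 fits without 1 library, and without both antibody libraries numbered 1. Il1r1 stood at 23.7, 31.2 and 35.7 CPM, all below PBS, a change of -1.04 ± 0.29 (SE), 95% interval -1.66 to -0.41, adjusted p = 0.0216, and its adjusted p was 0.0532 without PBS replicate 5, 0.0748 without antibody replicate 1 and 0.0760 without antibody replicate 2. For Csf2rb2 the libraries were at 201, 92.8 and 29.3 CPM, of which replicate 3 lay within the PBS range. Its change of 1.81 ± 0.60 (SE), 95% interval 0.53 to 3.09, adjusted p = 0.0400 passed in 1 of 8 fits without 1 library, and was 0.99 (adjusted p = 0.269) without antibody replicate 1. The other 6 fits without 1 library gave it an adjusted p between 0.0506 (without PBS replicate 1) and 0.0894 (without antibody replicate 2), and upper-quartile scaling gave 0.0522. Csf1r with antibody read 77.4, 92.1 and 128 CPM and overlapped PBS (-0.63 ± 0.27 (SE), 95% interval -1.21 to -0.05, adjusted p = 0.101). Of the 17 monocyte and macrophage markers, 11 were called lower here, with a summed level of 639 to 826 CPM.

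At 72 h with the antibody, 1 receptor was called against PBS, Csf2rb, higher, with 13.2% of all genes called, 6.81% higher and 6.43% lower. The receptors' median log2 change was -0.26 and that of all genes -0.00, and Csf2rb was also the 1 receptor whose libraries did not overlap, against 26.9% of all genes. The libraries stood at 554, 208 and 286 CPM and the change was 1.48 ± 0.29 (SE), 95% interval 0.87 to 2.098, adjusted p = 0.00849, 2.80-fold. Leaving out replicate 1, the highest, gave 1.01, and the call held in all 8 fits without 1 library. Csf2rb2 read 256, 30.5 and 44.2 CPM, so replicate 1 was far above the other libraries and the other two were close to or within the PBS range. Its change was 1.84 ± 0.60 (SE), 95% interval 0.56 to 3.12, adjusted p = 0.0536, and 0.31 (adjusted p = 0.723) without replicate 1. Without antibody replicate 2 it passed (2.32, adjusted p = 0.0222), as it did with DESeq2 (adjusted p = 0.0358).

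Markers of other lineages were also high in the antibody libraries with the most Csf2rb2. The summed basophil and mast cell markers were 1031 CPM in antibody 24 h replicate 1 and 616 CPM in antibody 72 h replicate 1, against 163 to 470.1 CPM in PBS, with 0 of 7 at 0 throughout a group. LPS 24 h replicate 1 had 659 CPM of these markers with Csf2rb2 at 38.6 CPM, within the PBS range. Antibody 24 h replicate 2 had 571 CPM with Csf2rb2 at 92.8 CPM. None of the 7 was called with antibody against PBS at either time, and 1, Ms4a2, was called higher at LPS 24 h against PBS and with antibody against LPS alone at 72 h. Its calls held in 1 of 8 and 2 of 6 fits without 1 library. Over 17 libraries the log2 levels of Csf2rb2 and these markers had a Pearson r of 0.61, and those of Csf2rb and the markers 0.50. Some correlations with other lists were negative and larger in size: Csf2rb2 had -0.70 with T and NK cell markers, and Csf2rb had -0.72 with B-lymphoid, -0.65 with stromal and endothelial and -0.58 with T and NK cell markers. The points share libraries and depth, no p is given, and no correlation is given without the antibody libraries numbered 1. In these same antibody libraries Csf3r was lowest of all 17, at 47.7 and 48.3 CPM, and Il6st was lowest too, at 34.7 and 36.0 CPM. The part of any of these marker lists in the beta chain levels was not tested.

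**Figure D3:**
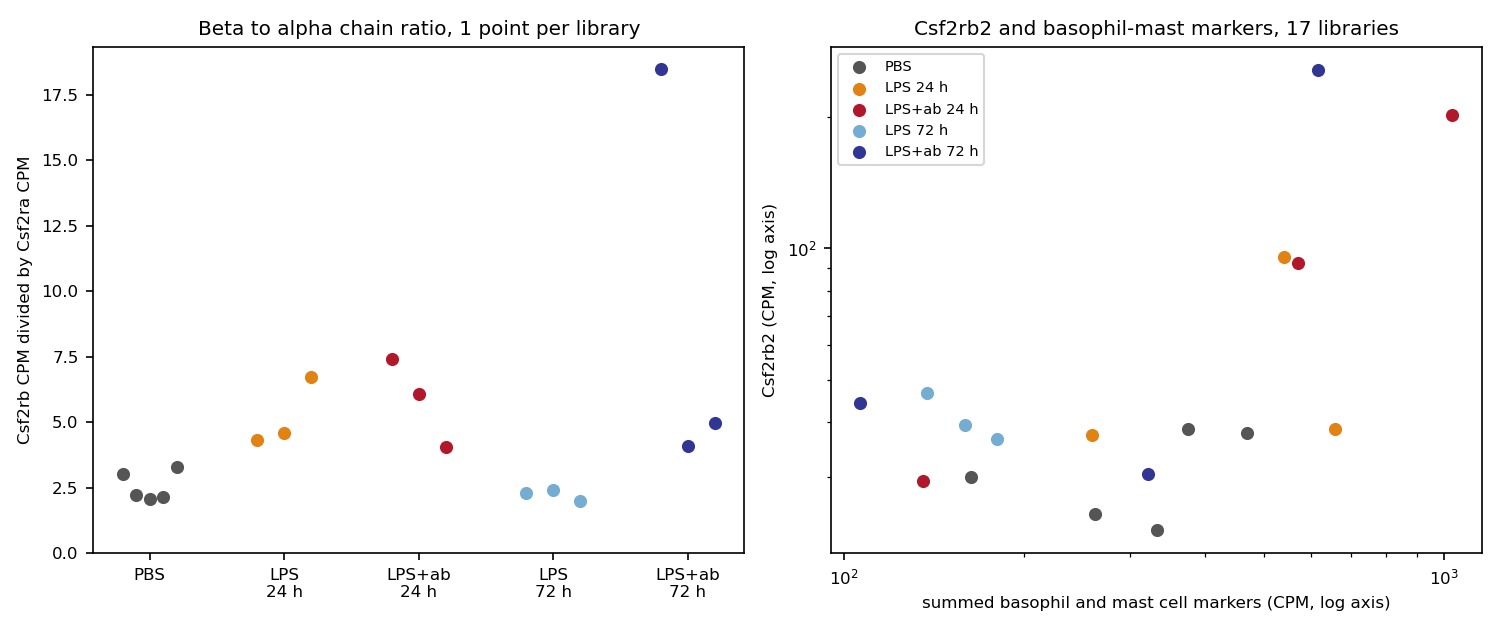
Left, Csf2rb CPM divided by Csf2ra CPM in each library by group (axis from 0): the ratio is 4.08 or more in every library of LPS 24 h and both antibody groups, and 3.30 or less in every PBS and LPS 72 h library. Right, Csf2rb2 CPM against the summed CPM of 7 basophil and mast cell markers for the 17 libraries, both axes logarithmic: the 2 libraries with the most Csf2rb2 (201 and 256 CPM) are the antibody libraries numbered 1.

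The ratio of the common beta chain to the GM-CSF binding chain separated the groups. Csf2rb divided by Csf2ra (both in CPM) was 3.04, 2.24, 2.06, 2.15 and 3.30 in PBS libraries and 2.31, 2.43 and 1.99 at LPS 72 h. It was 4.31, 4.602 and 6.74 at LPS 24 h, 7.42, 6.07 and 4.08 with antibody at 24 h and 18.5, 4.10 and 4.97 with antibody at 72 h, where replicate 1 was far above the others. The lowest library of the last 3 groups exceeded the highest of the first 2. Csf2rb to Il3ra gave 3.97 to 6.76 in PBS, 6.19 to 15.4 at LPS 24 h and 2.33 to 4.81 at LPS 72 h. With antibody it gave 8.85 to 14.9 at 24 h and 11.1 to 26.6 at 72 h, overlapping each other and LPS 24 h. Csf2rb2 to Csf2rb overlapped between all groups, from 0.145 to 0.525. Il6st to Il6ra was 1.92 to 1.99 at LPS 72 h, above the PBS range of 1.18 to 1.89 and the range with antibody at 72 h of 0.733 to 1.75. At 24 h it was 1.10 to 1.66 with LPS and 0.948 to 1.64 with antibody. These ratios are descriptions of levels not scaled for gene length, and were not tested.

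LPS with antibody was compared with LPS alone at each time to ask what blocking IL-10R adds. At 24 h, 0 of 10 receptors were called by edgeR or by DESeq2, 0 had an unadjusted p under 0.05, and 0% of all genes were called (273 of 14920 had an unadjusted p under 0.05). Libraries of every receptor overlapped, while 3.15% of all genes had no overlap. The intervals leave room for sizeable differences: that of Csf2rb was -0.31 to 1.09 and that of Csf2rb2 -0.55 to 2.38, while that of Tnfrsf1a was -0.29 to 0.42 on the log2 scale.

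At 72 h the antibody group differed from LPS alone in 3 receptors: Il3ra and Csf1r were lower and Csf2rb was higher, with 15.1% of all genes called, 8.64% higher and 6.48% lower. The receptors' median difference was -0.54 against 0.01 over all genes, and libraries did not overlap for 4 receptors (these 3 and Il6st) against 33.2% of all genes. The LPS 72 h libraries also enter the comparisons of LPS 72 h with 24 h and with PBS and the antibody effect between times, so these are not independent. Against PBS, edgeR called neither Il3ra (-0.28, adjusted p = 0.422) nor Csf1r (-0.54, 0.188) with antibody at 72 h.

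Il3ra with antibody stood at 20.9, 18.7 and 18.7 CPM against 45.7, 55.9 and 39.2 CPM with LPS alone. The antibody libraries lay close together and the nearest LPS library was far above them. The difference was -1.27 ± 0.26 (SE), 95% interval -1.82 to -0.73, adjusted p = 0.00566, 2.42-fold lower, and it passed in all 6 fits without 1 library and without both antibody libraries numbered 1. Csf1r with antibody stood at 101, 93.7 and 123 CPM against 177, 179 and 328 CPM, a difference of -1.11 ± 0.30 (SE), 95% interval -1.74 to -0.47, adjusted p = 0.0229. Its call was lost without antibody replicate 1 (-1.03, adjusted p = 0.0763), antibody replicate 2 (-0.98, 0.0729) or LPS replicate 3 (-0.71, 0.107), and in a fit of these 2 groups alone (0.0506). The summed monocyte and macrophage markers overlapped here (586 to 1111 CPM with LPS and 436 to 859 with antibody), with 1 of 17 called higher (Siglec1, a macrophage marker) and 1 lower (Cx3cr1, a monocyte marker). These calls held in 2 (Siglec1) and 4 (Cx3cr1) of 6 fits without 1 library. The summed stromal and endothelial markers did separate, at 188 to 209 CPM with LPS and 118 to 132 CPM with antibody. Of the 5 that were tested 1 was called lower (Pecam1) and 0 higher. The median log2 difference of these 5 was 1.04, opposite in sign to the difference of the sum and to that of Csf1r. In this list Cxcl12, Lepr and Pdgfra were at 0 in all LPS 72 h libraries. Over 17 libraries Csf1r had a Pearson r of 0.81 with the sum of this list and 0.52 with that of the monocyte and macrophage list. With the sum of the erythroid list it was -0.65. These describe shared libraries, and the part of either list was not tested.

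Csf2rb differed by 1.25 ± 0.34 (SE), 95% interval 0.53 to 1.96, adjusted p = 0.0218, 2.37-fold higher, and the lowest antibody library, at 208 CPM, was above the highest LPS library, at 188 CPM. The call was lost without antibody replicate 1 (0.79, adjusted p = 0.107), LPS replicate 1 (1.06, 0.109) or LPS replicate 2 (1.24, 0.0678), and in the fit of these 2 groups alone (1.29, 0.0806). For Csf2rb2 the difference of 1.43 ± 0.70 (SE), 95% interval -0.06 to 2.92, adjusted p = 0.170 did not pass, and it turned to -0.09 without antibody replicate 1. Il6st with antibody read 36.0, 64.8 and 145 CPM, all below the LPS libraries, and did not pass (-1.29 ± 0.50 (SE), 95% interval -2.35 to -0.24, adjusted p = 0.0871). It did with DESeq2 (adjusted p = 0.0346) and without antibody replicate 3 (-1.99, adjusted p = 0.0249). Il6ra with antibody read 49.1, 60.8 and 82.7 CPM, overlapping LPS alone (-0.68 ± 0.31 (SE), 95% interval -1.35 to -0.01, adjusted p = 0.147). Il1r1 at 36.5, 59.4 and 45.3 CPM gave 0.02 ± 0.32 (SE), 95% interval -0.65 to 0.69, adjusted p = 0.969. Csf3r at 48.3, 106 and 164 CPM gave -0.54 ± 0.38 (SE), 95% interval -1.33 to 0.26, adjusted p = 0.338, with replicate 1 far below the others.

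**Figure D4:**
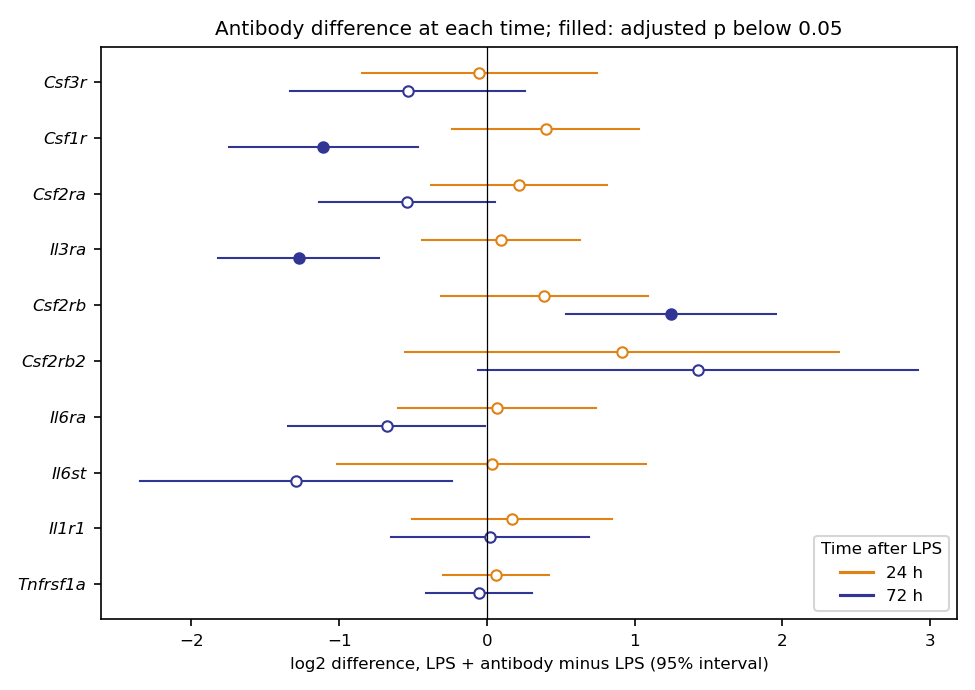
Log2 difference between LPS with antibody and LPS alone (horizontal axis, with 95% interval) for each receptor at 24 h (orange) and 72 h (blue); filled points have an adjusted p below 0.05 over all genes tested. At 24 h every interval includes 0, and at 72 h Csf1r (-1.11), Il3ra (-1.27) and Csf2rb (1.25) are filled.

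Whether the effect of the antibody differed between 24 h and 72 h was itself tested. A difference was called for 2 receptors, both lower at 72 h, with 6.35% of all genes called, 4.03% higher and 2.32% lower. The receptors' median was -0.62 and that of all genes 0.01. Il3ra differed by -1.37 ± 0.36 (SE), 95% interval -2.13 to -0.61, adjusted p = 0.0363, from 0.09 at 24 h to -1.27 at 72 h. Csf1r differed by -1.503 ± 0.42 (SE), 95% interval -2.40 to -0.60, adjusted p = 0.0464, from 0.40 at 24 h to -1.11 at 72 h. These calls were close to the threshold: that of Il3ra held in 3 and that of Csf1r in 2 of 12 fits without 1 library, and both were lost without the antibody libraries numbered 1 (adjusted p = 0.111 and 0.0914). The lost calls kept their direction, with differences of -1.17 to -1.73 for Il3ra and -1.12 to -1.65 for Csf1r over the 12 fits. For Csf2rb the difference between times was not called (0.86 ± 0.47 (SE), 95% interval -0.13 to 1.85, adjusted p = 0.278), so its antibody effects at 24 h and 72 h are not shown to differ.

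Within the antibody groups, 0 receptors were called between 72 h and 24 h by edgeR or by DESeq2 and 0 had an unadjusted p under 0.05, where 0% of all genes were called by edgeR (635 had an unadjusted p under 0.05). Libraries did not overlap for Il3ra and Il1r1, against 9.26% of all genes. Il3ra read 34.1, 25.0 and 22.9 CPM at 24 h (-0.50 ± 0.25 (SE), 95% interval -1.03 to 0.04, adjusted p = 0.918), and Il1r1 gave 0.64 ± 0.32 (SE), 95% interval -0.04 to 1.32, adjusted p = 0.918.

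Ordered by mean, Csf2rb ran from PBS (lowest) through LPS 72 h, LPS 24 h and antibody 24 h to antibody 72 h, each overlapping the next. Il3ra ran from antibody 72 h through PBS, LPS 24 h and antibody 24 h, all overlapping their neighbours, to LPS 72 h, which stood clear. Il6st ran in the order LPS 24 h, antibody 24 h, antibody 72 h and PBS, with a gap only before LPS 72 h. Il1r1 had its gap between antibody 24 h and LPS 72 h. Csf1r, Il6ra and Tnfrsf1a were lowest at LPS 24 h and highest at LPS 72 h with overlap at each step. Csf2ra and Tnfrsf1a were called in none of the 9 comparisons by edgeR, and neither was Csf3r. Csf2ra ranged from 29.9 CPM (antibody 72 h replicate 1) to 94.8 CPM (LPS 72 h replicate 3).

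Across the 17 libraries some receptors tracked each other. Il6ra and Il6st had a Pearson r of 0.93 on log2 CPM, Csf1r and Il6ra 0.90, Csf1r and Il6st 0.85, and Csf2rb and Csf2rb2 0.85, where shared reads may enter. For Csf3r and Csf2rb2 it was -0.81. The antibody libraries numbered 1 had both the lowest Csf3r (47.7 and 48.3 CPM) and the highest Csf2rb2 (201 and 256 CPM). No correlation is given without these libraries, so how far any of them rests on these libraries is not shown. The tested genes whose pattern was most like that of each receptor were Rere (0.98) and Adgra2 (0.96) for Il6st, and Rere (0.95) and Znrf2 (0.94) for Il6ra. Cp (0.97) and Ramp3 (0.93) were closest to Csf2rb2, Nampt and Eaf1 (both 0.92) to Csf2rb, and Gm17178 (0.90) and Usf1 (0.89) to Il3ra. Ptpro (0.94) and Tpm4 (0.93) were closest to Csf1r, Fer1l5 and Invs (both 0.93) to Csf3r, and Msi2 and Smad5 (both 0.95) to Il1r1. For Csf2ra they were Aatk (0.89) and Slc36a1 (0.83), and for Tnfrsf1a Tctn1 (0.85) and Kif2c (0.84). All of these share library, depth and group, and describe likeness only.

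The genes around these receptors give their setting at LPS 24 h against PBS, where 18.5% of all genes were called lower and 19.1% higher. Of 19 other growth factor and cytokine receptors of HSPC, 10 were lower and 0 higher, with a median of -0.48. Il18r1, which binds interleukin-18, changed by -1.88 ± 0.21 SE, adjusted p = 0.000314, and Il17ra, a chain for interleukin-17, by -0.83 ± 0.12 SE, adjusted p = 0.000481. Il7r, the interleukin-7 receptor of lymphoid progenitors, changed by -3.20 ± 0.48 SE, adjusted p = 0.000487, and Flt3, the receptor tyrosine kinase of multipotent and lymphoid progenitors, by -2.45 ± 0.45 SE, adjusted p = 0.00113. At LPS 72 h against 24 h, 8 of these 19 were higher and 2 lower, with a median of 0.63, where 14.7% of all genes were higher and 16.4% lower. The 2 lower were Epor and Il1rl1, named after their values were seen, and each call held in 1 of 6 fits without 1 library. In the antibody comparison at 72 h, 3 of the 19 were lower and 0 higher, with a median of -0.13, where 8.64% of all genes were higher and 6.48% lower. They were Il17ra, with Il10rb and Ifnar2 named after their values were seen. Their calls held in 6, 4 and 2 of 6 fits without 1 library.

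Of the partner and decoy receptors of these systems, 10 of 11 were tested and 3 were lower at LPS 24 h: Il5ra, the interleukin-5 partner of Csf2rb (-1.92 ± 0.48 SE, adjusted p = 0.00642), Sigirr, an inhibitory member of the interleukin-1 receptor family (-0.69 ± 0.19 SE, adjusted p = 0.0101), and Lifr, a partner of Il6st (-1.33 ± 0.50 SE, adjusted p = 0.0455). The median of the 10 was -0.12. Il1r2, the interleukin-1 decoy receptor, was not among them, but was higher against PBS with antibody at 24 h (2.03, adjusted p = 0.0154) and 72 h (1.68, adjusted p = 0.0493). It was named after its values were seen. The 72 h call of Il1r2 held in 1 of 8 fits without 1 library, and the 24 h call was lost without antibody replicate 1 (1.37, adjusted p = 0.0899) or replicate 2 (2.03, 0.0556). Of the ligands 8 of 15 passed the filter, and at LPS 24 h 1 was lower and 0 higher: Il1a, an interleukin-1 (-2.24 ± 0.85 SE, adjusted p = 0.0482), with a median of 0.21. Lif, a ligand of Lifr and Il6st named after its values were seen, was the 1 ligand called with antibody at 72 h, against PBS (2.88, adjusted p = 0.0379) and against LPS (3.39, adjusted p = 0.0459). These calls rest on antibody replicate 1: Lif read 12.4, 0.467 and 0.707 CPM with antibody at 72 h and 0.229 to 1.19 CPM in PBS, and without that library the differences were -0.0013 (adjusted p = 0.999) and 0.53 (0.736).

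Downstream, 2 of 16 kinases, STATs and adaptors were lower and 0 higher at LPS 24 h: Jak1, a kinase bound by gp130 (-0.42 ± 0.13 SE, adjusted p = 0.0198), and Lyn, a SRC-family kinase (-0.37 ± 0.12 SE, adjusted p = 0.0280), with a median of -0.16. Of 11 feedback inhibitors and targets of STAT3 and STAT5, 4 were lower and 0 higher, with a median of -0.15. They were Sh2b3, an adaptor that restrains cytokine receptor signalling (-0.70 ± 0.13 SE, adjusted p = 0.00119), Socs2 (-2.06 ± 0.39 SE, adjusted p = 0.00133) and Cish (-0.93 ± 0.29 SE, adjusted p = 0.0222), SOCS-family inhibitors that are targets of STAT5, and Inpp5d, the lipid phosphatase SHIP1 (-0.45 ± 0.12 SE, adjusted p = 0.0109). Among 15 adaptors of the interleukin-1 and TNF receptors, Myd88, the adaptor of Il1r1 and of most Toll-like receptors, was higher (0.86 ± 0.16 SE, adjusted p = 0.00126) and the kinase Irak2 lower (-0.73 ± 0.27 SE, adjusted p = 0.0401), with a median of 0.04. Myd88 was also higher with antibody than with LPS alone at 72 h (0.85, adjusted p = 0.00809). Of 8 myeloid transcription factors, Cebpb (1.503 ± 0.33 SE, adjusted p = 0.00299) and Cebpa (0.89 ± 0.24 SE, adjusted p = 0.0109) were higher at LPS 24 h and Irf8, a factor of monocyte and dendritic cell fate, was lower (-0.99 ± 0.33 SE, adjusted p = 0.0278), with a median of 0.38. Irf8 was lower with antibody than with LPS alone at 72 h (-1.47, adjusted p = 0.0147), the comparison in which Csf1r was lower. That call of Irf8 held in 4 of 6 fits without 1 library. At LPS 24 h the calls of Il18r1, Il17ra, Il7r, Flt3, Il5ra, Sigirr, Sh2b3, Socs2, Myd88 and Cebpb held in all 8 fits without 1 library. The others held in 7 (Inpp5d and Cebpa), 6 (Jak1), 5 (Cish), 4 (Lyn and Irf8), 2 (Lifr and Il1a) and 1 (Irak2) of the 8. All these adjusted p-values are from edgeR over all 14920 genes.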

How the data were processed

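The deposited file is a table of raw read counts per gene for 17 libraries. Per the submitters' processing notes the tools were HISAT2 2.2.0, Subread featureCounts 2.1.1, R 4.3.2 and DESeq2, with build GRCm38; the annotation, the strand setting and the treatment of reads that match several genes are not given in the sources used here. Samples were grouped by their labels, and the receptor genes and pathway lists were chosen with earlier results of these data known.

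The counts were tested with edgeR 4.0.16 in R 4.3.3 (quasi-likelihood test, TMM factors, 1 mean per group, all 17 libraries in 1 fit). The default low-count filter (minimum count 10, minimum total 15) kept 14920 of 35321 genes, which hold 99.9% of counts; 13321 genes were 0 everywhere. Adjustment over all genes tested followed Benjamini and Hochberg, calls were made below 0.05, and intervals are 95%. There were 9 comparisons. Standard errors were taken from the log2 change and its F statistic. Correlations used log2 CPM with a prior count of 2. The procedure was also run on simulated counts in which far fewer genes changed than were called at LPS 24 h. That run is not used as support here.

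The genes named are all 10 receptors, the 2 genes most correlated with each, and up to 4 called genes per pathway list by the smallest adjusted p at LPS 24 h against PBS; marker genes and any others were named after their values were seen. Same-numbered PBS and LPS 24 h libraries deviated together, with correlations of 0.191, 0.188 and 0.158 for numbers 1, 2 and 3, so the fit with a replicate block is printed beside a call that it changes there. No other pair of groups compared here had every correlation above 0.1, but antibody 24 h and antibody 72 h had 0.723, -0.022 and 0.697. Differently numbered libraries were not compared, so the check cannot show whether the numbers mark pairs. Alternatives were DESeq2 1.42.0 (test and size factors), upper-quartile scaling, no filter, the block, fits of the compared groups alone, the summed beta chain pair and leaving out each library. Leaving out both antibody libraries numbered 1 and limma 3.58.1 (voom with sample quality weights) were added after seeing the data, as was leaving out each library for the called list genes.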

Additional observations from a re-analysis of the deposited data

Results flagged for a closer look

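The antibody effect differed between the times for 2 receptors by the test of the difference itself. For Csf1r the difference between LPS with antibody and LPS alone was 0.40 at 24 h and -1.11 at 72 h on the log2 scale, a change of -1.503 (edgeR, adjusted p = 0.0464). Csf1r at LPS 72 h was highest in replicate 3, and without that library the change was -1.12 (adjusted p = 0.0978). For Il3ra the difference was 0.09 at 24 h and -1.27 at 72 h, a change of -1.37 (edgeR, adjusted p = 0.0363). Without LPS 24 h replicate 1, the 24 h library highest in Il3ra, it was -1.73 (adjusted p = 0.0210). The call of Il3ra held in 3 of 12 fits without 1 library, with an adjusted p of up to 0.0877, and that of Csf1r in 2 of 12. Both were lost without the antibody libraries numbered 1. Each of the 10 receptors was also checked for a PBS library standing apart from the other 4, and none passed Dixon's limit.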

How the results depend on the processing

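All 16 called gene changes kept their direction under every alternative run. Of the 29 values with an unadjusted edgeR p under 0.05 or a call in any alternative, 1, uncalled, reversed: Csf2rb2 in the antibody comparison at 72 h ran from -0.088 (without antibody 72 h replicate 1) to 1.92 (without replicate 2) over fits without 1 library, and was -0.088 with both antibody libraries numbered 1 left out. Of the other 61 values 24 crossed 0. Counts of receptors called differed as follows, and the cause was not tested. Without a filter the antibody effect between times had 1. With the replicate block antibody 72 h against PBS had 0, since Csf2rb gave 1.37 (adjusted p = 0.0575), Csf2rb2 at 24 h gave 1.47 (0.178), and Csf2rb in the antibody comparison at 72 h gave 1.18 (0.0555), while Il6st there (-1.44, 0.0304) and Il1r1 at LPS 72 h against 24 h (0.86, 0.0136) were gained. In those comparisons the check of same-numbered libraries did not give every correlation above 0.1. In fits of the compared groups alone LPS 24 h against PBS had 5, the antibody comparison at 72 h had 1 and the effect between times 0. DESeq2 called 1 at LPS 72 h and 2 with antibody at 72 h against PBS, 4 in the antibody comparison at 72 h (Il6st gained) and 5 between the LPS times (Il1r1 gained, adjusted p = 0.0440), and voom called 1 at LPS 72 h. Without both antibody libraries numbered 1, antibody 24 h against PBS and the antibody comparison at 72 h had 1 each and the effect between times 0. Leaving out 1 library gave 2 to 5 receptors at LPS 24 h, 0 to 0 at LPS 72 h, 1 to 3 with antibody at 24 h and 1 to 2 at 72 h against PBS. It gave 0 to 0 and 1 to 4 in the antibody comparison at 24 h and 72 h, 1 to 4 between the LPS times, 0 to 0 between the antibody times and 0 to 2 for the effect between times.

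Over all genes, calls at LPS 72 h against PBS went from 3 to 99 (compared groups), 178 (DESeq2), 2170 (voom) and 0 (block). Antibody 24 h against PBS went from 3605 to 1721 (block), and antibody 72 h against PBS from 1975 to 374 (block) and 1164 (without the libraries numbered 1). The antibody comparison at 72 h went from 2256 to 1123 (compared groups), and the effect between times from 947 to 617 (no filter), 333 (block), 286 (compared groups), 1709 (DESeq2) and 336 (without the libraries numbered 1). DESeq2 called 1 gene for the antibody at 24 h and 2 between the antibody times, where edgeR called 0. Leaving out 1 library gave no fewer than 3361 calls at LPS 24 h (5616 with all) and 3199 between the LPS times (4646), 877 to 3420 with antibody at 24 h, 583 to 2066 at 72 h against PBS, 769 to 2279 against LPS and 231 to 1544 for the effect between times. Upper-quartile scaling moved the median of all genes from -0.03 to -0.16 at LPS 24 h and from 0.02 to 0.13 between the LPS times. The split of higher to lower calls went from 2849 and 2767 to 2030 and 3490 at LPS 24 h, and from 1743 and 1862 to 1120 and 2328 with antibody at 24 h. It went from 1016 and 959 to 659 and 1348 with antibody at 72 h against PBS, from 1289 and 967 to 968 and 1315 against LPS, from 2192 and 2454 to 2783 and 1919 between the LPS times, and from 601 and 346 to 435 and 440 for the effect between times. With 3 libraries in most groups the intervals are wide, so a change that did not pass is not shown to be absent.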
